A study of Rattus norvegicus with 70 samples.

Results

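The question was whether livers initiated with a high or a low dose of diethylnitrosamine (DEN) differed in DNA methylation around transcript starts, and which of those differences were seen at both sampling times. DEN is a nitrosamine that liver enzymes turn into a DNA-alkylating agent, and it is a standard initiator of rat liver tumours. The DEN 30 mg/kg and DEN 3 mg/kg groups each had 5 libraries at partial hepatectomy and 5 at terminal euthanasia, which makes 20 of the 70 libraries of the series. All came from Crj:CD(SD)IGS rats, an outbred strain. After initiation and 2 weeks of withdrawal, both doses received phenobarbital at 500 ppm in the drinking water as the tumour promoter. Part of the liver was removed in every rat after 1 week of promotion, and the rats were euthanized after 6 weeks of it. The high dose was given for 1 week because the rats lost body weight, whereas the labels give 1 or 2 weeks for the treatments without saying which applied to the low dose. Dose and length of initiation therefore cannot be told apart. A vehicle group (0.5% methylcellulose, then the same phenobarbital, 5 libraries at each time) is set beside the doses where it helps. Each library is a separate liver sample by the labels. Since every rat gave tissue at both times, libraries with the same number may come from the same rat, which the labels do not say. The labels name the tissue as liver, and no expression was analysed here with which to check it.

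In the genome of mammals, a methyl group on the cytosine of a CG pair is copied to daughter cells, and CG-rich promoters (CpG islands) are mostly free of it in normal tissue. Dense methylation of such promoters goes with silent genes, and tumours often gain it at developmental regulators. The assay used a methyl-binding protein to pull down methylated fragments, which were then sequenced (MBD-seq). The value of a region is its number of captured reads, scaled by the authors to a common total, and is called the signal here. The signal is not a percentage of methylation, so it serves to compare livers at 1 region and not regions with each other. It also averages over all cells of the sample, so a change in the share of a cell type and a change within cells cannot be told apart. Each of 17174 regions spanned 5625 bp around a transcript start.

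Among the 20 DEN libraries, the regions held 1.10 M to 1.66 M reads, with 42 to 61 reads in the median one. Between 0.856% and 5.39% of a library's regions had no read. In 9 of the 70 libraries of the series this share was under 1%, and in the others it was 1.60% or more. These 9 are called weakly enriched here, because their reads reached nearly every region. Among the DEN libraries 3 were of this kind, and all 3 belonged to DEN 30 mg/kg: replicates 3 and 4 at partial hepatectomy and replicate 3 at terminal euthanasia. No DEN 3 mg/kg library was weakly enriched. The median share without a read was 3.14% in the DEN 30 mg/kg livers and 4.02% in the DEN 3 mg/kg livers at partial hepatectomy (exact permutation test of the means, two-sided, p = 0.23, n = 5 each). At terminal euthanasia the medians ran the other way, 4.84% in the DEN 30 mg/kg livers and 3.95% in the DEN 3 mg/kg livers (exact permutation test of the means, two-sided, p = 0.762, n = 5 each). The means, which this test compares, did not: they were lower at 30 mg/kg at both times. Judged by library number, replicates 3 and 4 of the 2 doses also came from different blocks of libraries, while replicates 1, 2 and 5 came from shared blocks. Results are given with all libraries unless a sentence says otherwise, and counts of agreement also without the weakly enriched ones and within replicates 1, 2 and 5.

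Promoter sequences of 4 genes named below are shown first, as RefSeq gives them on the GRCr8 assembly. Each runs from 250 bases before to 50 bases after the start, with CG pairs in capitals and the rest in lower case. With all libraries, Aebp2 and Hoxd13 had a higher mean signal at the high dose at both times. Cycs had a lower one at both, and Gstp1 had a higher one at partial hepatectomy. None of these differences passed the test after adjustment for the number of regions. The doses overlapped at both times for Aebp2, Hoxd13 and Cycs. For Hoxd13 the log2 difference at partial hepatectomy fell from 1.69 to 0.36 without the weakly enriched libraries. The coordinates of the deposited regions come from another, unnamed build, so the windows were not placed on them.
Aebp2: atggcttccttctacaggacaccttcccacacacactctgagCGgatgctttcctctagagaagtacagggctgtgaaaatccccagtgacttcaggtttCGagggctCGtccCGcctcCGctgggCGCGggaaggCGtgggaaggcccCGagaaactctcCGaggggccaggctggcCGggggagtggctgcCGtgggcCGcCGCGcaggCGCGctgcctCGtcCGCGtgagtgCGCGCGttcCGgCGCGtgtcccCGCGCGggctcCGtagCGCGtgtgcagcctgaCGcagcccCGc
Hoxd13: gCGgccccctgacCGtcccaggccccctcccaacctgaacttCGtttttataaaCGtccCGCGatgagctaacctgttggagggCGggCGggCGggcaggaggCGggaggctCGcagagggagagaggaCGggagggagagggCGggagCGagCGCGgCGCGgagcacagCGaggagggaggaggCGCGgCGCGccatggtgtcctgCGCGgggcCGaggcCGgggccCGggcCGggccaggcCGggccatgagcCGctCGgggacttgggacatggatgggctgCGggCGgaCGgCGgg
Cycs: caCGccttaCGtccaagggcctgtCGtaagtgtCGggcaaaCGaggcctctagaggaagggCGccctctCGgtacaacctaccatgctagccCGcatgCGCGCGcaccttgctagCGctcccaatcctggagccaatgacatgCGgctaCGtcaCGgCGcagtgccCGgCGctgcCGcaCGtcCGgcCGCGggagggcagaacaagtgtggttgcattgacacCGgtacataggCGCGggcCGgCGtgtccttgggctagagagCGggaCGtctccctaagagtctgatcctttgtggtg
Gstp1: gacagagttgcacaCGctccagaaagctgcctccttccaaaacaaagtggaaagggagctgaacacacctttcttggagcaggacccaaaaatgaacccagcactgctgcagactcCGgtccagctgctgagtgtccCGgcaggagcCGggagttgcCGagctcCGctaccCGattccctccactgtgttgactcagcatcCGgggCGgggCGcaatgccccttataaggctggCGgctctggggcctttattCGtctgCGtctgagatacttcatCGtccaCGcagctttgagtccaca
They lie at chr4:175259294-175259593, plus strand (Aebp2), chr3:79977827-79978126, plus strand (Hoxd13), chr4:80984718-80985017, minus strand (Cycs) and chr1:210769656-210769955, minus strand (Gstp1). The Hoxd13 window holds 36 CG pairs, more than 94.6% of the 33469 RefSeq promoter windows. Aebp2 has 34 CG pairs, Cycs has 30 and Gstp1 has 15, beside a median of 7 over all windows. All 4 are thus CG-rich, the Gstp1 window least.

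No region passed the test between the doses after adjustment for the number of regions, at either time or over both. At partial hepatectomy 0 of 15809 regions tested (0%) had a limma adjusted p under 0.05, and the smallest was 0.359. At terminal euthanasia it was 0 of 16008 (0%), with a smallest adjusted p of 0.777. When the log2 values of the same replicate number were averaged over both times, 0 of 15740 regions (0%) passed, the smallest adjusted p being 0.239 for Aebp2. The dose differences named below are therefore values that did not pass the adjusted test, ranked by an unadjusted limma p. That p was under 0.05 for 825 regions at partial hepatectomy (5.22% of those tested: 592 or 3.74% higher and 233 or 1.47% lower at 30 mg/kg) and for 482 at terminal euthanasia (3.01%: 281 or 1.76% higher and 201 or 1.26% lower). Over both times it was under 0.05 for 882 regions (5.6%: 614 or 3.9% higher and 268 or 1.7% lower).

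Few of these differences were shared by the 2 times. Of the 15740 regions tested at both, 49 (0.311%) had an unadjusted p under 0.05 with the same direction at each time, and 3 (0.0191%) had it with opposite directions. The 49 regions are 48 places once identical coordinates are counted once, and 30 of the regions (0.191%) were higher and 19 (0.121%) lower at 30 mg/kg. They make up 5.94% of the 825 regions past that p at partial hepatectomy and 10.2% of the 480 past it at terminal euthanasia. Counted over all regions tested at both times, 63.1% had the same sign at each time, and Pearson's r of the log2 differences was 0.334 across 15740 regions. The regions of a time share their libraries and are not independent. If same-numbered libraries come from the same rats, the second time is a repeat measurement and not a second test of dose. In their deviations from the group mean, same-numbered libraries of the 2 times matched best in 3 of 5 pairs at each dose. The highest such correlation was 0.646, for replicate 3 of DEN 30 mg/kg, which was weakly enriched at both times. In no region did all 5 libraries of one dose lie beyond all 5 of the other at both times, although 71 regions (0.449%) lay entirely above and 26 (0.164%) entirely below at partial hepatectomy, and 26 (0.162%) above and 18 (0.112%) below at terminal euthanasia.

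The agreement moved with the weakly enriched libraries. Without them, 24 regions agreed (15 higher, 9 lower) and 13 had opposite directions, the share with the same sign was 52%, and r was 0.0812. Of the 49 regions, 11 were among those 24. Within replicates 1, 2 and 5, 11 regions agreed and 2 were opposite, r was 0.0421, and only 1 of the 49 was included, Slc38a3. The last result rests on 3 libraries a side and has fewer degrees of freedom. What part the weak enrichment has in the other 38 regions was not tested.

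**Figure D1:**
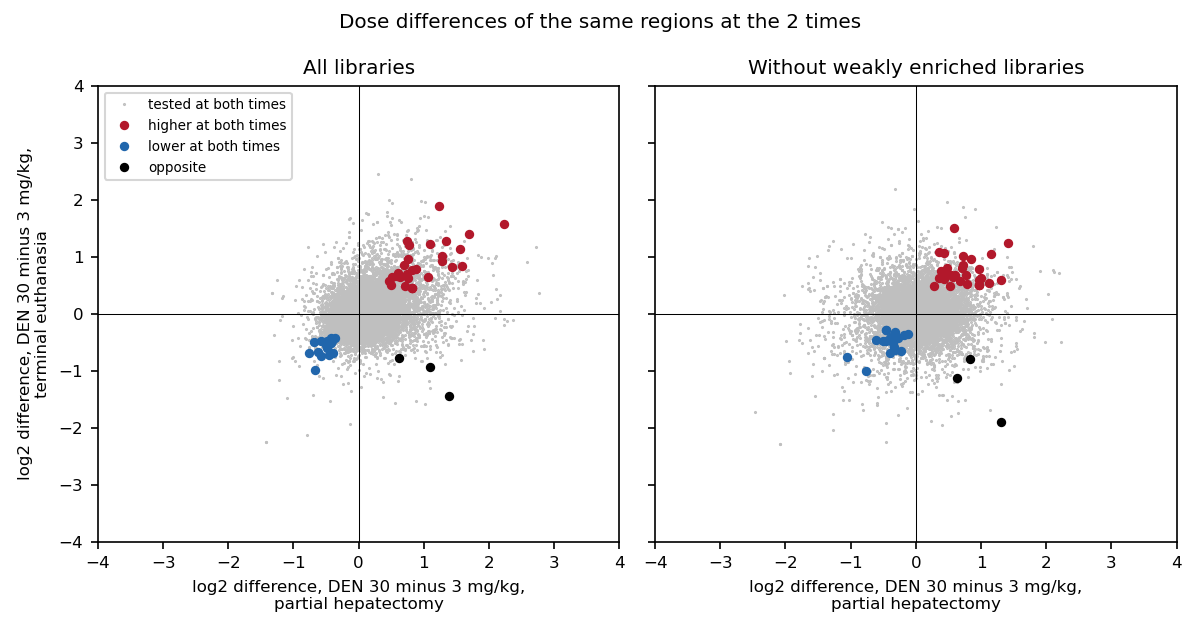
Log2 difference in signal, DEN 30 minus 3 mg/kg, at partial hepatectomy (x axis) and terminal euthanasia (y axis) for 15740 regions, with all libraries (left) and without weakly enriched ones (right). Colours mark, in both panels, the 30 regions higher, 19 lower and 3 opposite in the left panel; the grey cloud leans along the diagonal on the left (r = 0.334) and is nearly round on the right (r = 0.0812).

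The lean of the cloud followed the level of signal. When the regions were split into 5 equal bins by mean signal, the median log2 difference was 0.38 at partial hepatectomy and 0.22 at terminal euthanasia in the lowest bin. In the highest bin it was -0.14 and -0.13. The 3 bins between lay in order at each time. Without the weakly enriched libraries the 5 medians lay between 0.03 and 0.08 at partial hepatectomy and between -0.004 and 0.03 at terminal euthanasia. Regions that agreed as higher had a median geometric mean signal of 29.3 and those that agreed as lower 89.7, beside 58.95 over all regions tested. No region that agreed as lower came from the lowest bin and none that agreed as higher from the highest.

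**Figure D2:**
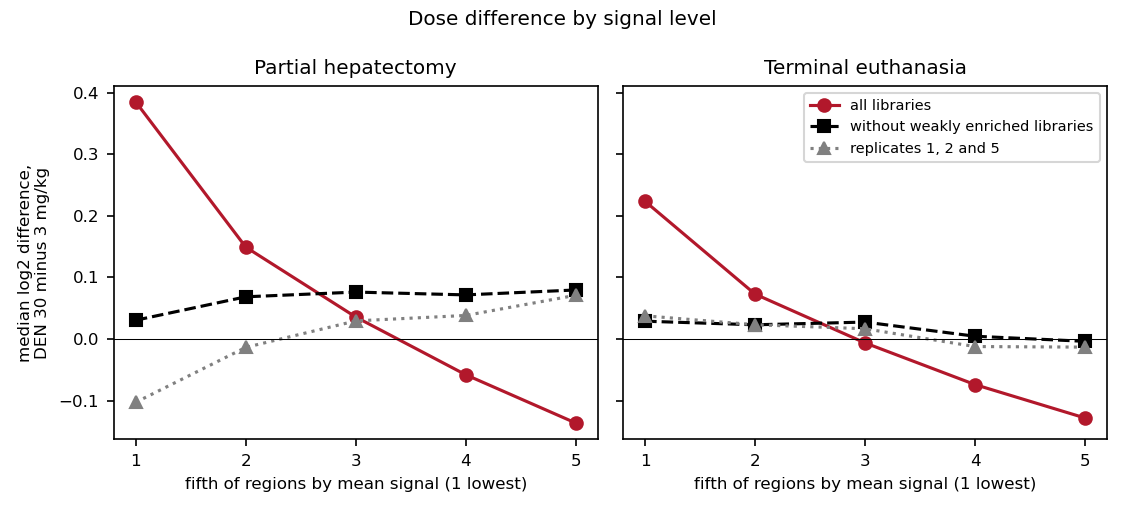
Median log2 difference in signal, DEN 30 minus 3 mg/kg (y axis), for 5 equal bins of regions ordered by mean signal over all libraries (x axis), at the 2 times. With all libraries (red) the median runs from 0.38 down to -0.14 at partial hepatectomy, and without the weakly enriched libraries (black) it stays between 0.03 and 0.08; grey marks replicates 1, 2 and 5.

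In all, 10 places agreed both with all libraries and without the weakly enriched ones: Aebp2, Slc38a3, Nr4a3, Mdga2 and the overlapping RT1-M4 and RT1-M5 were higher, and Tbx3, Rabl4, Klk1c8 and Dpp3 were lower at 30 mg/kg. Of these, Nr4a3, RT1-M4, RT1-M5, Tbx3 and Rabl4 came from the naming rule, and the other 5 were picked after their values were seen. In the files, the regions lie at chr8:112913319-112918944 (Slc38a3), chr5:64714505-64720130 (Nr4a3), chr20:1639337-1644962 (RT1-M4), chr6:89019574-89025199 (Mdga2), chr12:38165545-38171170 (Tbx3), chr7:116095025-116100650 (Rabl4) and chr1:94522844-94528469 (Klk1c8), each around the start of the transcript named.

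Aebp2, a zinc finger cofactor of the Polycomb repressive complex PRC2, had the smallest p over both times. At partial hepatectomy its signal was 20.1, 38.9, 41.2, 62.2 and 19.5 in the DEN 30 mg/kg livers, against 20.4, 11.9, 1.14, 10.4 and 30.996 in the DEN 3 mg/kg livers. The values at terminal euthanasia were 22.9, 36.9, 43.5, 48.7 and 30.7 in the DEN 30 mg/kg livers, against 10.4, 9.41, 27.6, 16.2 and 20.6 in the DEN 3 mg/kg livers. The groups overlapped at both times, and the highest value at partial hepatectomy was that of weakly enriched replicate 4. The log2 difference was 1.55 ± 0.42 (SE, n = 5 each) at the first time and 1.13 ± 0.35 at the second. Over both it was 1.34 ± 0.29, with a limma adjusted p of 0.239. That adjusted p was 0.0192 without replicate 5 of DEN 3 mg/kg and 0.0122 without replicate 5 of both doses, each left out at both times. Leaving out 1 replicate number thus decided on which side of 0.05 it fell. That number, 5, is the one whose scale is uncertain, and the part of the scaling in this was not tested. Within replicates 1, 2 and 5 the difference was 0.32 at partial hepatectomy and 1.16 at terminal euthanasia. Vehicle livers had 21.1 ± 9.24 at partial hepatectomy and 28.2 ± 13.9 at terminal euthanasia, between the doses at each time. The region is chr4:177816715-177822340 in the files.

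Slc38a3 codes for a sodium-coupled glutamine transporter of the liver. Its signal at partial hepatectomy was 45.5, 74.6, 43.2, 55.2 and 107 in the DEN 30 mg/kg livers, against 31.03, 30.4, 52.6, 27.3 and 44.99 in the DEN 3 mg/kg livers. At terminal euthanasia it was 57.9, 64.1, 75.3, 69.4 and 86.8 in the DEN 30 mg/kg livers, against 35.4, 39.98, 64.4, 43.1 and 46.7 in the DEN 3 mg/kg livers. Replicates 3 and 5 of DEN 3 mg/kg lay among the DEN 30 mg/kg values at partial hepatectomy, and replicate 3 did at terminal euthanasia. The log2 difference was 0.75 ± 0.23 at partial hepatectomy and 0.63 ± 0.26 at terminal euthanasia (SE, n = 5 each; limma adjusted p over both times 0.43). It was 0.96 and 0.60 at these times without the weakly enriched libraries, and 1.01 and 0.75 in replicates 1, 2 and 5. In vehicle livers the signal averaged 46.6 ± 6.42 at partial hepatectomy and 51.2 ± 21.04 at terminal euthanasia.

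Nr4a3 and Nr4a2 are orphan nuclear receptors of the immediate-early response. The Nr4a3 region had a signal of 91.002, 90.4, 90.1, 78.3 and 102 in the DEN 30 mg/kg livers, against 48.5, 78.2, 34.3, 64.004 and 56.99 in the DEN 3 mg/kg livers. The groups did not overlap at this time, though the lowest DEN 30 mg/kg and the highest DEN 3 mg/kg values were almost equal. Its values at terminal euthanasia were 102, 104, 103, 111 and 132 in the DEN 30 mg/kg livers, against 58.3, 95.3, 57.3, 69.2 and 128 in the DEN 3 mg/kg livers. There only replicate 5 of DEN 3 mg/kg lay within the range of the DEN 30 mg/kg values. The difference was 0.72 ± 0.21 and then 0.49 ± 0.22 on the log2 scale (SE; limma adjusted p over both times 0.497). A second Nr4a3 region just upstream differed by 0.67 at partial hepatectomy and by -0.10 at terminal euthanasia, with unadjusted limma p of 0.171 and 0.863. For Nr4a2 the signal at partial hepatectomy was 85.7, 103, 69.05, 86.3 and 83.2 in the DEN 30 mg/kg livers, against 32.97, 33.7, 46.8, 36.7 and 76.99 in the DEN 3 mg/kg livers. Its log2 difference was 0.96 ± 0.24 then and 0.30 ± 0.23 at terminal euthanasia, so it was not among the agreeing regions.

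RT1-M4 is a class Ib gene of the rat major histocompatibility complex, whose products present antigens to immune cells. The region of RT1-M5, on the opposite strand, overlaps it almost fully and has identical values in the files. The signal there was, at partial hepatectomy, 129, 141, 97.8, 137 and 187 in the DEN 30 mg/kg livers, against 62.1, 117, 86.8, 41.4 and 99.99 in the DEN 3 mg/kg livers. It was, at terminal euthanasia, 163, 164, 126, 131 and 145 in the DEN 30 mg/kg livers, against 112, 132, 106, 82.7 and 101 in the DEN 3 mg/kg livers. The groups overlapped at each time. The log2 difference was 0.82 ± 0.22 and 0.45 ± 0.22 (SE, n = 5 each; limma adjusted p over both times 0.497). Near-identical sequences are common among RT1 genes and no source used here says how reads were shared among copies, so this value is uncertain. Mdga2, which codes for a membrane-anchored adhesion protein of neurons, differed by 0.76 ± 0.30 and 0.96 ± 0.31. Its signal averaged 50.6 ± 10.5 in the DEN 30 mg/kg livers and 32.6 ± 20.01 in the DEN 3 mg/kg livers at partial hepatectomy (SD, n = 5 each), where replicate 5 of DEN 3 mg/kg stood far above its group. At terminal euthanasia the means were 45.9 ± 15.9 at 30 mg/kg and 23.98 ± 10.4 at 3 mg/kg, and the vehicle livers had 46.8 ± 21.2.

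Tbx3, a T-box transcription factor of liver and limb development, had the smallest p over both times among the agreeing lower regions. Its signal was, at partial hepatectomy, 75.1, 112, 54.7, 137 and 113 in the DEN 30 mg/kg livers, against 139.6, 188, 159, 129.9 and 142 in the DEN 3 mg/kg livers. At terminal euthanasia the values were 163, 143, 129, 156 and 141 in the DEN 30 mg/kg livers, against 156, 214, 161, 233 and 299.7 in the DEN 3 mg/kg livers. A single DEN 30 mg/kg library, weakly enriched replicate 4, reached the range of the DEN 3 mg/kg values at partial hepatectomy, and replicates 1 and 4 did at terminal euthanasia. The log2 difference was -0.68 ± 0.20 and -0.50 ± 0.21 (SE, n = 5 each; limma adjusted p over both times 0.387). It was -0.61 and -0.45 without the weakly enriched libraries and -0.65 and -0.53 in replicates 1, 2 and 5. Vehicle livers had 184 ± 24.8 at partial hepatectomy and 174 ± 56.9 at terminal euthanasia, above both doses at the first time and between them at the second.

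Rabl4, a small GTPase of the intraflagellar transport complex that RefSeq now calls Ift27, was lower by a similar amount at each time. Its signal at partial hepatectomy was 62.4, 92.5, 62.3, 85.3 and 58.5 in the DEN 30 mg/kg livers, against 106, 97.7, 92.5, 82.8 and 103 in the DEN 3 mg/kg livers. At terminal euthanasia it was 65.5, 73.9, 86.9, 59.02 and 75.1 in the DEN 30 mg/kg livers, against 90.6, 132, 90.999, 94.3 and 78.2 in the DEN 3 mg/kg livers. The log2 difference was -0.43 ± 0.18 and -0.42 ± 0.20. In vehicle livers the signal was 76.4 ± 2.97 at partial hepatectomy and 75.5 ± 7.496 at terminal euthanasia, nearer to the high dose. Klk1c8, a kallikrein-family serine protease gene, differed by -0.76 ± 0.35 and -0.68 ± 0.32. The region listed as Dpp3, a dipeptidyl peptidase gene, differed by -0.67 ± 0.33 and -0.98 ± 0.34. At terminal euthanasia all 5 Dpp3 values of the DEN 30 mg/kg livers (44.8, 40.2, 33.9, 40.4 and 12.7) lay below all 5 of the DEN 3 mg/kg livers (52.1, 69.4, 72.6, 65.6 and 60.8). The files place that region on chromosome 3 and RefSeq places the gene on chromosome 1, so its identity is uncertain.

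**Figure D3:**
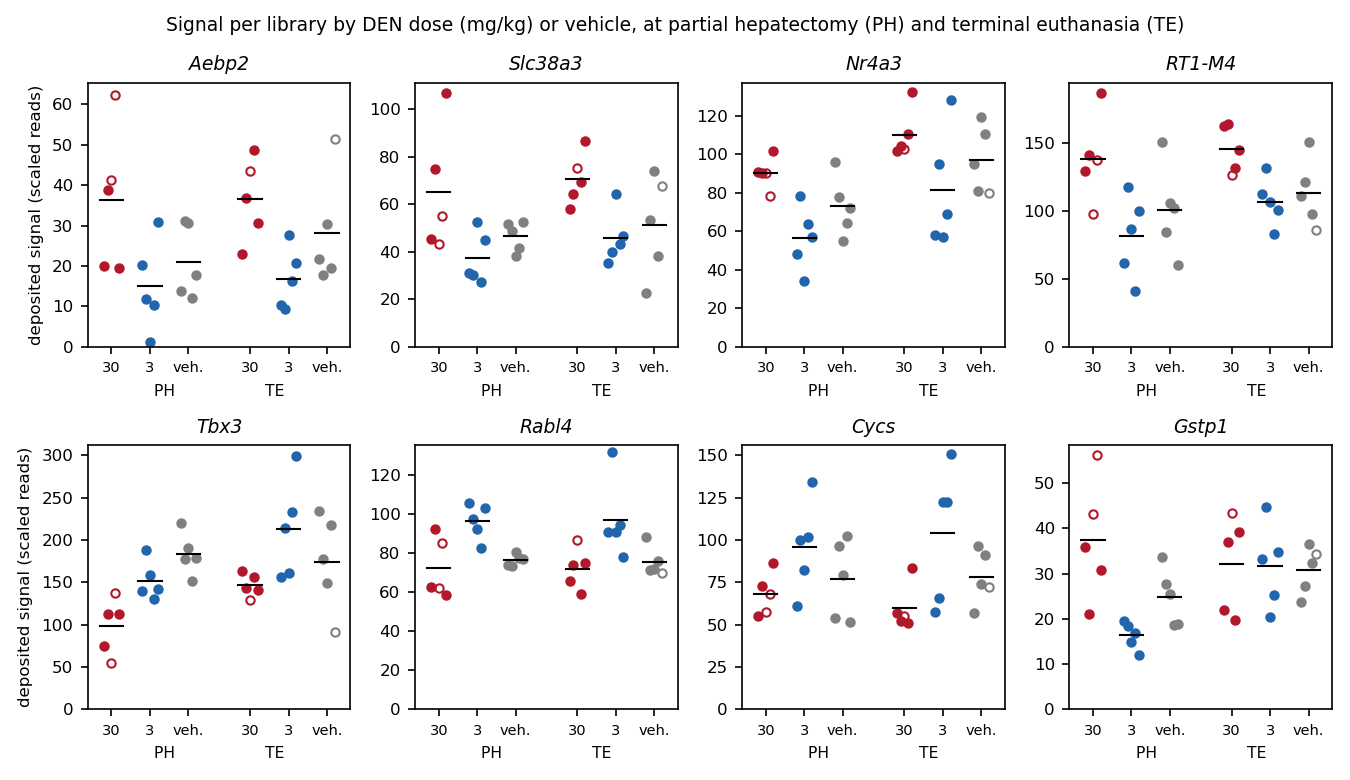
Deposited signal (scaled reads, y axis) of each library for 8 regions, with DEN 30 mg/kg (red), DEN 3 mg/kg (blue) and vehicle (grey) livers at partial hepatectomy (PH) and terminal euthanasia (TE). Bars are group means and open circles weakly enriched libraries; the 2 doses overlap at one time or both in every panel, and for Gstp1 they are apart at partial hepatectomy and level at terminal euthanasia.

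The other higher regions that agreed were not past the unadjusted p at both times once the weakly enriched libraries were left out, although some kept nearly the same difference. Wdr19, an intraflagellar transport protein, differed by 0.87 ± 0.27 and 0.79 ± 0.27, and by 0.46 and 0.74 without them. At partial hepatectomy its signal was 34.9, 27.3, 89.2, 71.3 and 60.6 in the DEN 30 mg/kg livers, against 32.97, 19.5, 31.99, 21.6 and 36.99 in the DEN 3 mg/kg livers. The 2 weakly enriched replicates, 3 and 4, held the highest of these values. Prnd, which codes for the prion-like protein doppel, differed by 0.51 and 0.65 with all libraries and by 0.38 and 0.75 without the weakly enriched ones. Otx1, a homeobox gene of brain development, differed by 0.58 and 0.66 with all libraries and by 0.54 and 0.68 without the weakly enriched ones, with little change in size. Some of the largest differences were at developmental regulators with little signal. Hoxd13, the last gene of the HoxD cluster, had at partial hepatectomy 1.06, 12.6, 34.5, 77.3 and 4.11 in the DEN 30 mg/kg livers, against 2.91, 7.602, 5.71, 0.01 and 3.999 in the DEN 3 mg/kg livers. Its 2 highest values were again replicates 3 and 4, and without them the difference was 0.36 in place of 1.69. Within replicates 1, 2 and 5 the difference at partial hepatectomy was -0.08. At terminal euthanasia Hoxd13 had 4.37, 10.9, 32.9, 18.6 and 13.8 in the DEN 30 mg/kg livers, against 9.37, 2.35, 2.04, 9.88 and 3.26 in the DEN 3 mg/kg livers, and weakly enriched replicate 3 was the highest. Olig2, a regulator of glial development, differed by 1.24 and 1.90 with all libraries and by 0.59 and 1.51 without the weakly enriched ones. Its difference at partial hepatectomy was -0.13 within replicates 1, 2 and 5. Wdr19, Hoxd13, Olig2 and Irx3 were picked after their values were seen. Irx3, an Iroquois homeobox gene, differed by 1.44 and 0.83 with all and by 1.30 and 0.59 without them. Over the 30 higher regions the log2 differences lay between 0.46 and 2.23 at partial hepatectomy and between 0.45 and 1.90 at terminal euthanasia.

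Among the other lower regions, Cycs codes for cytochrome c, the electron carrier of the respiratory chain. Its signal at partial hepatectomy was 55.02, 72.5, 57.5, 68.2 and 86.2 in the DEN 30 mg/kg livers, against 61.1, 99.9, 82.3, 102 and 134 in the DEN 3 mg/kg livers. At terminal euthanasia it was 56.8, 52.1, 55.1, 50.7 and 83.6 in the DEN 30 mg/kg livers, against 57.3, 65.9, 123, 122 and 151 in the DEN 3 mg/kg livers. At the second time 4 of the 5 DEN 30 mg/kg values lay below all of the DEN 3 mg/kg ones. The log2 difference was -0.46 ± 0.22 and -0.72 ± 0.22 (SE, n = 5 each), or -0.40 and -0.69 without the weakly enriched libraries, and cytochrome c has processed pseudogene copies, so the origin of some reads is uncertain. Cnr2, the cannabinoid receptor of immune cells, differed by -0.40 ± 0.18 and -0.68 ± 0.23 at 1 of its 3 regions, and by -0.34 and -0.58 without the weakly enriched libraries. At the other 2 regions the differences lay between -0.15 and 0.11. Syp, which codes for the synaptic vesicle protein synaptophysin and was picked after its values were seen, differed by -0.58 and -0.74 with all libraries and by -0.22 and -0.65 without the weakly enriched ones. At terminal euthanasia its 5 high-dose values lay below all 5 low-dose ones. Rab27a, a GTPase of vesicle secretion, differed by -0.44 and -0.50 with all libraries and by -0.40 and -0.43 without the weakly enriched ones. For Ndufb5, a subunit of respiratory complex I, the differences were -0.49 and -0.59 with all and -0.36 and -0.51 without them. Gcn1l1, an activator of the amino-acid starvation response, had -0.50 and -0.54 with all and -0.32 and -0.64 without them. The overlapping regions of Ly6g6f and Bat5, in the histocompatibility complex, had -0.47 and -0.55 at Ly6g6f with all, and -0.46 and -0.29 without them. Over the 19 lower regions the log2 differences lay between -0.76 and -0.37 at partial hepatectomy and between -0.98 and -0.42 at terminal euthanasia.

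By position in the files, the agreeing regions lay on 17 chromosomes, and chromosome 20 had the largest share. There 6 of 482 places tested (1.24%) agreed, beside 0.311% of all regions tested at both times. All 6 lay among the 195 places of its first 5 Mb, which hold the RT1 genes. They are not separate: RT1-M4 and RT1-M5 overlap with identical values, and Bat5 and Ly6g6f overlap with nearly identical ones. The share is therefore raised by counting overlapping regions, and only RT1-M4 and RT1-M5 are RT1 genes. Of these 6, 3 were higher and 3 lower, so the group had no common direction. The group means of the vehicle livers lay between those of the doses at 26 of the 29 higher and 13 of the 19 lower places at partial hepatectomy, and at 20 and 14 at terminal euthanasia. These places were chosen because the doses lay apart, which by itself favours a vehicle mean between them. No such count was made over all regions, so no dose pattern is read from it. At 9 of the 29 higher places the vehicle mean equalled or passed the high-dose mean at terminal euthanasia.

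Other differences were past the unadjusted p at partial hepatectomy and not at terminal euthanasia. Gstp1 codes for the placental glutathione transferase, a marker of early lesions in rat liver carcinogenesis, and had 35.98, 21.02, 43.2, 56.2 and 30.8 in the DEN 30 mg/kg livers, against 19.4, 18.5, 14.9, 16.9 and 11.998 in the DEN 3 mg/kg livers. The doses did not overlap, and the log2 difference was 1.10 ± 0.29 (SE, n = 5 each; limma adjusted p 0.528) and 0.79 without the weakly enriched libraries. At terminal euthanasia the values of Gstp1 were 21.8, 36.9, 43.5, 19.7 and 39.2 in the DEN 30 mg/kg livers, against 33.3, 44.7, 20.4, 25.2 and 34.8 in the DEN 3 mg/kg livers. These overlapped throughout, and the difference was 0.005 ± 0.31. Cox16, an assembly factor of cytochrome oxidase, had the smallest p of this time with 2.23 ± 0.50, and -0.20 ± 0.46 at terminal euthanasia. Mff, the mitochondrial fission factor, differed by 0.94 ± 0.26 and then by -0.02 ± 0.29. B3galt4, a ganglioside-synthesizing galactosyltransferase in the histocompatibility region, differed by 1.19 ± 0.28 and 0.55 ± 0.28. Its unadjusted limma p at terminal euthanasia was 0.0514 with all libraries and 0.0306 without the weakly enriched ones, so it agreed only in the smaller set. Cox16 and B3galt4 were picked after their values were seen.

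The naming rule gave these higher and lower regions at partial hepatectomy. Notch2, a receptor of bile duct development, had 80.4, 83.04, 81.5, 93.3 and 95.5 in the DEN 30 mg/kg livers, against 51.4, 67.3, 59.4, 43.3 and 74.99 in the DEN 3 mg/kg livers. The doses did not overlap, with a log2 difference of 0.56 ± 0.19, whereas at terminal euthanasia they did, with 0.27 ± 0.22. Tgfbr2, a receptor of transforming growth factor beta, differed by 0.61 ± 0.20 and 0.06 ± 0.25. Baiap2, an adaptor of the actin cytoskeleton, was apart at partial hepatectomy with 0.62 ± 0.20 and at 0.04 ± 0.21 later. Lower regions included Dnm1 (dynamin of vesicle uptake), Mpzl2 (an adhesion protein) and Slc30a4 (a zinc transporter), whose differences lay between -0.67 and -0.59 at partial hepatectomy and between -0.10 and -0.07 at terminal euthanasia. Slc30a4 had a signal of 52.9, 60.97, 49.9, 56.2 and 55.4 in the DEN 30 mg/kg livers, against 92.1, 80.4, 103, 92.2 and 73.99 in the DEN 3 mg/kg livers. Its doses did not overlap, and neither did those of Dnm1 or Mpzl2. A region listed under Grm7, a metabotropic glutamate receptor gene, had -1.21 ± 0.28 (limma adjusted p 0.359). Without replicate 5 of DEN 30 mg/kg it was -1.48 with a limma adjusted p of 0.0256, and without replicate 5 of both doses -1.58 with 0.0192. The scale of replicate 5 is uncertain, and its part in the Grm7 result was not tested. The tables hold 2 regions under this symbol, and the other differed by 0.18. This one was picked after its values were seen. At terminal euthanasia it differed by -0.11 ± 0.27.

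Terminal euthanasia had fewer regions past the unadjusted p, and by the naming rule its genes included the following. Prodh2, a hydroxyproline-degrading enzyme of liver and kidney, had 86.3, 84.7, 81.6, 74.5 and 91.002 in the DEN 30 mg/kg livers, against 57.3, 45.9, 49.1, 65.6 and 72.8 in the DEN 3 mg/kg livers. These did not overlap (log2 difference 0.54 ± 0.21), and at partial hepatectomy the difference was 0.13 ± 0.23. Parp6, an ADP-ribosyltransferase, differed by 0.71 ± 0.26, and its 5 high-dose values stood close together at 89.1 to 99.4, against 24.998 to 90.1 at the low dose. Afap1l1, an actin-filament associated protein, had 98.3, 103, 96.5, 111 and 146 in the DEN 30 mg/kg livers, against 162, 153, 156, 152 and 163 in the DEN 3 mg/kg livers. All high-dose values lay below all low-dose ones (-0.52 ± 0.19), and the difference was -0.27 ± 0.17 at partial hepatectomy. Cacnb4, a calcium channel subunit, differed by -0.63 ± 0.20. Tpt1, a translationally controlled growth-related protein with processed pseudogenes, was picked after its values were seen and differed by -1.03 ± 0.25 (limma adjusted p 0.777).

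Whether the dose difference itself changed between the times was tested as terminal euthanasia minus partial hepatectomy within each replicate number. The count was 0 of 15740 (0%) at a limma adjusted p under 0.05, with 456 regions at an unadjusted p under 0.05 (2.9%: 127 or 0.807% with a positive and 329 or 2.09% with a negative change). A loss or gain of a dose difference from one time to the other was thus not shown for any gene here. For Gstp1 the change was -1.09 ± 0.43 (SE, unadjusted limma p 0.0172), for Mff -0.96 ± 0.31 and for Cox16 -2.43 ± 0.63. Of the naming rule, Tmem146, a sperm ion channel subunit gene that RefSeq calls Catsperd, had -0.96 ± 0.25 and Camk4, a calcium-dependent kinase, 0.85 ± 0.26. Hsd17b3, an enzyme of testosterone synthesis, had 0.80 ± 0.26, and Plscr1, a phospholipid scramblase, 0.77 ± 0.27. The 3 regions with opposite directions were Sall1 (a zinc finger developmental regulator; 1.38 and then -1.44), Rspry1 (0.62 and -0.77) and Tnfaip8l2 (a brake on immune signalling; 1.10 and -0.94, or 0.64 and -1.13 without the weakly enriched libraries). They were picked for that pattern.

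Of the gene lists, no member passed the adjusted test at either time. Developmental homeobox, Pax, Tbx and Gata genes, which set body plan and organ identity, had the largest median of the 17 lists at both times. At partial hepatectomy 67 of 94 tested regions were higher, with a median log2 difference of 0.37 beside 0.01 over all regions, and 16 higher and 3 lower regions had an unadjusted limma p under 0.05 (3.74% higher and 1.47% lower over all regions). At terminal euthanasia 65 of 95 were higher, the median was 0.25 beside -0.03, and the counts were 12 and 1 (1.76% and 1.26% over all regions). Without the weakly enriched libraries the counts were 6 higher and 1 lower at partial hepatectomy and 8 higher and 3 lower at terminal euthanasia. Over all regions they were then 531 higher and 195 lower of 15809, and 261 higher and 241 lower of 16008. The medians of the list without the weakly enriched libraries were 0.03 at partial hepatectomy, beside 0.07 over all regions, and 0.11 at terminal euthanasia, beside 0.01. Within replicates 1, 2 and 5 they were -0.05 and 0.12. With all libraries the lowest of the 5 signal bins had medians of 0.38 and 0.22, near those of the list. What part the level of signal has in the list was not tested. In the list, 3 members agreed between the times with all libraries, Otx1, Hoxd13 and Tbx3, the last of them lower. The list does not hold every homeobox gene: Irx3, which also agreed as higher, is not counted in it. Hoxb7, a HoxB cluster gene, had at partial hepatectomy 24.3, 11.6, 38.4, 39.1 and 9.24 in the DEN 30 mg/kg livers, against 1.94, 20.6, 0.01, 3.76 and 7.999 in the DEN 3 mg/kg livers. Weakly enriched replicates 3 and 4 gave its 2 highest values, and the difference was 2.17 ± 0.55 with them, 1.60 without them and 0.05 ± 0.46 at terminal euthanasia. Hoxb8, its neighbour, had 1.58 ± 0.44 and 0.14 ± 0.41.

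**Figure D4:**
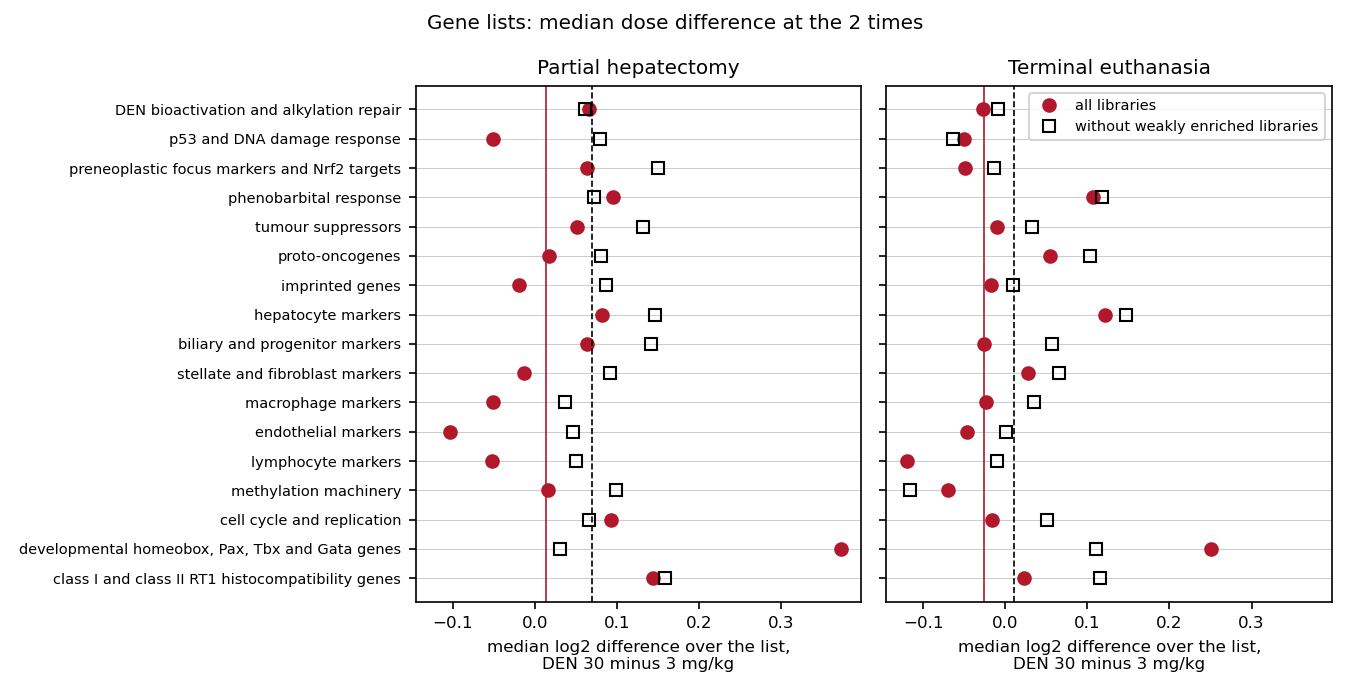
Median log2 difference in signal, DEN 30 minus 3 mg/kg (x axis), over the tested regions of each gene list at partial hepatectomy and terminal euthanasia, with all libraries (red) and without weakly enriched ones (open squares); vertical lines are the medians of all regions (red solid, black dashed). The developmental list lies far right with all libraries (0.37 and 0.25) and at 0.03 and 0.11 without the weakly enriched ones.

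RT1 histocompatibility genes had 8 higher and 0 lower of 47 regions with an unadjusted limma p under 0.05 at partial hepatectomy, and 7 and 1 without the weakly enriched libraries, and 2 and 2 at terminal euthanasia. Over all regions 3.74% were higher and 1.47% lower at the first time, and 1.76% and 1.26% at the second. Without the weakly enriched libraries, 531 of all 15809 regions were higher and 195 lower by that p at the first time. The median of the list was 0.14 at the first time and 0.02 at the second with all libraries, beside 0.01 and -0.03 over all regions, and 0.16 and 0.12 without the weakly enriched ones, beside 0.07 and 0.01. RT1-CE5, a class I gene, had 2.12, 0.01, 4.79, 5.02 and 1.03 in the DEN 30 mg/kg livers at partial hepatectomy, against 22.3, 5.43, 5.71, 14.1 and 0.9999 in the DEN 3 mg/kg livers. Its values at terminal euthanasia were 16.4, 2.17, 2.12, 0.01 and 0.01 in the DEN 30 mg/kg livers, against 23.96, 4.704, 7.16, 26.96 and 11.9 in the DEN 3 mg/kg livers. A value of 0.01 stands for no read. Of the 10 high-dose values 9 were at or under 5.02, while the low-dose ones spread widely and overlapped them. The tables list this region in 2 identical entries, and similar RT1 copies make it uncertain. The difference was -1.42 ± 0.83 and -2.25 ± 0.68, and vehicle livers had 45.02 ± 30.7 at partial hepatectomy and 29.9 ± 17.99 at terminal euthanasia, above the means of both doses. RT1-Da, a class II gene, differed by -0.34 and -0.47 with all libraries and by -0.08 and -0.36 without the weakly enriched ones.

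The counts of the lists tied to the action of DEN stand beside a share over all regions of 5.22% past the unadjusted p at partial hepatectomy and 3.01% at terminal euthanasia. Of 23 regions for its bioactivation and for alkylation repair, none had an unadjusted limma p under 0.05 at partial hepatectomy, and 1 was lower at terminal euthanasia, Parp1, a sensor of DNA breaks (-0.62 ± 0.24). Cyp2e1, the cytochrome that activates DEN, differed by 0.63 ± 0.35 and -0.21 ± 0.33. For Mgmt, which removes alkyl groups from guanine, the values were 0.32 ± 0.38 and -0.30 ± 0.36, or 0.33 and -0.08 without the weakly enriched libraries. In the list of the p53 and DNA damage response, 2 of 25 regions were higher at partial hepatectomy and 2 lower at terminal euthanasia by that p, among the lower ones Bax, an effector of apoptosis (-0.48 ± 0.23). Among preneoplastic focus markers and Nrf2 targets 1 of 27 was higher at partial hepatectomy, Gstp1, or 4 without the weakly enriched libraries, and 0 were at terminal euthanasia. Without those libraries, 531 of all 15809 regions were higher by that p at partial hepatectomy. Of the phenobarbital response, 0 of 20 regions had that p at partial hepatectomy and 1 of 19 at terminal euthanasia.

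For the remaining lists the same shares over all regions apply. Proto-oncogenes had 1 of 29 at partial hepatectomy, the immediate-early gene Fos (1.04 ± 0.43, or 0.64 without the weakly enriched libraries), and 0 of 30 later. Tumour suppressors had 1 of 32 and 2 of 33. Imprinted genes had 0 of 34 and 1 of 34, and the methylation machinery 0 of 17 at each time. Its Dnmt1, the maintenance methyltransferase, differed by 0.04 ± 0.17 and -0.42 ± 0.21. Of cell cycle genes 2 of 29 were higher and 1 lower at partial hepatectomy, among them the mitotic cyclin Ccnb2 (0.73 ± 0.30, or 0.42 without those libraries), and 1 of 30 was lower at terminal euthanasia. Markers of the cell types of the liver gave 0 of 29 (hepatocytes), 2 of 19 (biliary and progenitor cells), 1 of 21 (stellate cells and fibroblasts), 0 of 16 (macrophages), 0 of 11 (endothelium) and 0 of 21 (lymphocytes) at partial hepatectomy. At terminal euthanasia these counts were 1 of 29, 1 of 19, 0 of 22, 0 of 16, 0 of 11 and 0 of 21. Beside medians over all regions of 0.01 and -0.03 at the 2 times, the hepatocyte list had 0.08 and 0.12, the biliary list 0.06 and -0.03 and the stellate list -0.01 and 0.03. The macrophage list had -0.05 and -0.02, the endothelial list -0.10 and -0.05 and the lymphocyte list -0.05 and -0.12. Without the weakly enriched libraries, beside 0.07 and 0.01 over all regions, these were 0.15 and 0.15 (hepatocytes), 0.14 and 0.06 (biliary), 0.09 and 0.07 (stellate), 0.04 and 0.03 (macrophages), 0.05 and 0.001 (endothelium), and 0.05 and -0.01 (lymphocytes). Their part in the dose differences was not tested.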

How the data were processed

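Methylated DNA was captured with a methyl-binding protein kit from rat liver and sequenced in short reads, per the labels' protocols. The authors deposited 1 table per time with a signal value for each region and library. By its values, the signal is a read count multiplied by 50 M and divided by a whole number, with 0.01 where there was no read. In 10 cases 2 libraries of the series shared that number exactly. Replicate 5 of each DEN dose, at each time, shared it with a replicate 1 or 2 of the series. Whether the number is the true total of replicate 5 cannot be told, so the scale of its values is uncertain. No source used here gives the aligner or the genome build, and coordinates are those of the files.

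Regions with a signal of at least 10 in at least 5 libraries of a time were tested on log2(signal + 1) with limma 3.58.1 in R 4.3.3 (mean-variance trend, 7 conditions sharing the spread, Benjamini-Hochberg adjustment over all regions). Fold changes on this scale understate changes of low regions. Values over both times are the mean of the 2 log2 values of a replicate number, and the dose-by-time change is their difference. The procedure was run on simulated data with independent noise in each region and library. Those data had no weakly enriched libraries and no rats shared between the times, so they cannot judge the agreement counted here. Counting error and the number of livers limit the precision. The p-values measure the spread between these samples.

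Regions were named by a rule: above-median signal, then the smallest p per direction at each time, over both times with agreement, and for the dose-by-time change, up to 2 members of each list, and a few fixed genes. Not every region of the rule is named, and those picked outside it are said to be. The members, lists and rule were chosen with earlier results of these data known. The alternatives tried were other pseudocounts, filters, scalings and blocks, and leaving out libraries. Some results are not reported here.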

Additional observations from a re-analysis of the deposited data

Results flagged for a closer look

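The 4 dose groups of 5 libraries were screened at 58 named regions and for 2 library measures. In 11 cases 1 library's gap to its nearest neighbour exceeded 0.71 of the group's range (Dixon's 95% limit). Chance flags about 1 in 20 groups. Replicate 5, whose scale is uncertain, gave 6 of the 11. Its median signal was the highest of its group each time. At partial hepatectomy it was 57.5 at 30 mg/kg and 55.99 at 3 mg/kg. At terminal euthanasia it was 64.5 and 64.1. The part of the scaling in these flags was not tested.

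At terminal euthanasia in the DEN 30 mg/kg livers, replicate 5 had 83.6 at Cycs (others 50.7 to 56.8) and 146 at Afap1l1 (others 96.5 to 111). Replicate 1 had 105 at Tmem146 (others 55.02 to 66.3) and 16.4 at RT1-CE5 (others 0.01 to 2.17). Replicate 4 had 89.0 at Parp1 (others 36.9 to 51.9) and 75.6 at Bax (others 39.3 to 49.8). At partial hepatectomy in the DEN 30 mg/kg livers, replicate 5 had 91.4 at Ndufb5 (others 44.2 to 46.6) and 95.5 at Parp1 (others 43.4 to 55.6), and replicate 1 had 14.8 at Cox16 (others 36.8 to 45.2). In the DEN 3 mg/kg livers at partial hepatectomy, replicate 5 had 66.99 at Mdga2 (others 15.99 to 29.3). At terminal euthanasia replicate 5 of the DEN 3 mg/kg livers had 51.04 at Cyp2e1 (others 19.99 to 28.6).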

How the results depend on the processing

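The count of regions at a limma adjusted p under 0.05 was 0 in all 4 comparisons under every alternative run, except 1 at partial hepatectomy (Grm7) and 1 over both times (Aebp2). Leaving out the last library block of both doses, an alternative chosen after seeing the data, gave 1 in each, and leaving out single replicates gave 0 to 1 in each: Grm7 without replicate 5 of DEN 30 mg/kg and Aebp2 without replicate 5 of DEN 3 mg/kg. The 49 agreeing regions became 24 without the weakly enriched libraries, 19 without those of DEN 30 mg/kg alone (chosen after seeing the data), 32 with a library number block and 11 within shared library blocks, which has fewer samples. Leaving out 1 replicate gave 24 (replicate 3 of DEN 30 mg/kg) to 81 (replicate 5 of DEN 3 mg/kg), each of which moves the count by over 1.5 times. Pseudocount, filters, quantile normalization, median centring and the 2 doses fitted alone gave 46 to 64, and leaving out the last library block 69. The members changed too. Of the 49 regions, 46 were kept with pseudocount 10, 42 with the stricter filter and 41 with median centring. With the 2 doses fitted alone 38 were kept, 34 without a filter and 30 with quantile normalization. A replicate block kept all 49, and a library number block 24. Leaving out the last library block kept 25, and leaving out 1 replicate kept 16 to 31. Over all alternatives the number of regions at an unadjusted p under 0.05 lay between 458 and 1781 at partial hepatectomy (825 as reported), 359 and 671 at terminal euthanasia (482), 369 and 1564 over both times (882) and 320 and 726 for the dose-by-time change (456). Apart from a few fixed genes, the single regions were chosen by their values in these same libraries, so a kept direction is no separate support. Hoxd13 and Olig2 were followed over both times only. At partial hepatectomy their differences were -0.08 and -0.13 within replicates 1, 2 and 5. Of 168 results for single regions, 167 kept their direction under each of the 21 to 23 alternatives run for them. The exception was Mgmt over both times, at 0.0054 as reported and -0.29 with quantile normalization, -0.028 with median centring, -0.082 without the last library block, and between -0.064 and 0.10 when 1 replicate was left out. The cause was not tested.

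Equal replicate numbers did not pair the doses: the deviations of same-numbered libraries correlated above 0.1 in 0 of 5 pairs at partial hepatectomy and 1 of 5 at terminal euthanasia. With a replicate block the calls stayed at 0 and 61 regions agreed. The planned edgeR and DESeq2 alternatives were not run, since the deposited unit is a scaled signal. A median of 42 to 61 reads a region limits what can be detected.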
